A study of Mus musculus with 4 samples.

Results

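The ubiquitin-specific proteases (USPs) were examined in CD69+DP thymocytes from control and Foxa1/2cKO mice. Members were the genes whose symbol is Usp followed by a number, without Usp18 and Usp44, which gave 45 of the 24421 genes listed. Of the 45 genes, 39 entered the comparison, for which a gene needed an FPKM of 1 or more in 2 or more samples, among 10776 genes of all kinds. FPKM are reads divided by gene length and by a divisor for each sample, so levels of different genes can be compared. The 12 other symbols that start with Usp, among them *Usp9x* and *Uspl1*, were not counted as members.

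USPs are cysteine proteases that remove ubiquitin from proteins or take apart ubiquitin chains, and they form the largest family of deubiquitinases. Ubiquitin marks proteins for degradation by the proteasome, directs membrane receptors to lysosomes, and acts as a signal on histones, DNA repair proteins and components of the NF-kB pathway. A USP can therefore stabilise its substrate or end a signal. In thymocytes, TCR signalling and positive selection depend on several of these routes.

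Thymocytes were FACS-sorted as CD69+CD4+CD8+ cells, the stage at which DP cells have received a TCR signal, from C57BL/6 mice at 6 weeks of age. The 2 control samples had the genotype Foxa1fl/flFoxa2fl/fl CD4Cre-, and the 2 Foxa1/2cKO samples Foxa1fl/flFoxa2fl/fl CD4Cre+, in which Cre driven by the *Cd4* promoter deletes the transcription factor genes *Foxa1* and *Foxa2* from the DP stage. All animals carried the floxed alleles, and the Cre transgene was present in the Foxa1/2cKO group alone, so the deletion and the transgene cannot be told apart. Cells of different mice went into each sample. Within a sort, the methods give more than 1 mouse of each genotype, and do not state whether their cells were pooled.

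To give FPKM, reads were divided by 10796528 to 14968316 per sample. In Foxa1/2cKO 2 the divisor, 11093927, was smaller than the 11261898 reads recovered on listed genes. In the other samples it was larger than those reads, so the divisors are not plain read totals. *Foxa1* and *Foxa2* were listed at 0 in all 4 samples, so they do not check the genotypes. *Cd4*, *Cd8a*, *Cd69* and *Rag1* were present in every sample. Foxa1/2cKO 2 stood apart from the other samples. On the first principal component, which held 65.2% of the variance, it lay at 28.5 and the others between -11 and -7.42. The log2 difference between the Foxa1/2cKO samples had an SD of 0.405 over all genes tested, against 0.198 between the controls. Over the 39 USP genes these SDs were 0.241 and 0.0853. In Foxa1/2cKO 2 the summed level of 5 mature single-positive thymocyte markers was 174 FPKM, against 228 to 261 FPKM in the other samples, and that of 9 DP markers was 3151 FPKM, against 2454 to 2529 FPKM. Summed B cell markers, at 54.4 to 104.1 FPKM in Foxa1/2cKO and 50.6 to 76.2 FPKM in controls, did not separate the groups. Myeloid markers likewise overlapped (13.8 and 26.3 FPKM against 17.6 and 28.9 FPKM), and 4 of 6 erythroid markers were listed at 0 in all samples. Summed thymic epithelial markers were low and lay above the controls in Foxa1/2cKO (4.18 and 3.75 FPKM against 3.26 and 3.18 FPKM), mostly through *Epcam* (3.86 and 3.37 FPKM against 2.76 and 2.89 FPKM), while *Foxn1* and *Psmb11* were near 0, with 0.127 FPKM as their highest value. The part of these differences in the USP values was not tested.

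Most USP genes were transcribed in CD69+DP thymocytes. The members summed to 913 FPKM in control 1, 900.3 FPKM in control 2, 928 FPKM in Foxa1/2cKO 1 and 979 FPKM in Foxa1/2cKO 2. Between 27 and 29 members reached 10 FPKM in a sample, and the 5 highest held 33.5% to 36.3% of the sum. The median tested member stood at 20.2 to 23.2 FPKM, against 14.7 to 14.9 FPKM for all genes tested. *Usp7*, *Usp19*, *Usp4*, *Usp5* and *Usp3* were the 5 highest in controls, in that order, and no neighbours among these 5 had overlapping control values. Further down, 12 of the 38 pairs of neighbours overlapped, such as *Usp22* and *Usp25*, *Usp25* and *Usp1*, and *Usp1* and *Usp39*, whose order is within their spread.

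**Figure D1:**
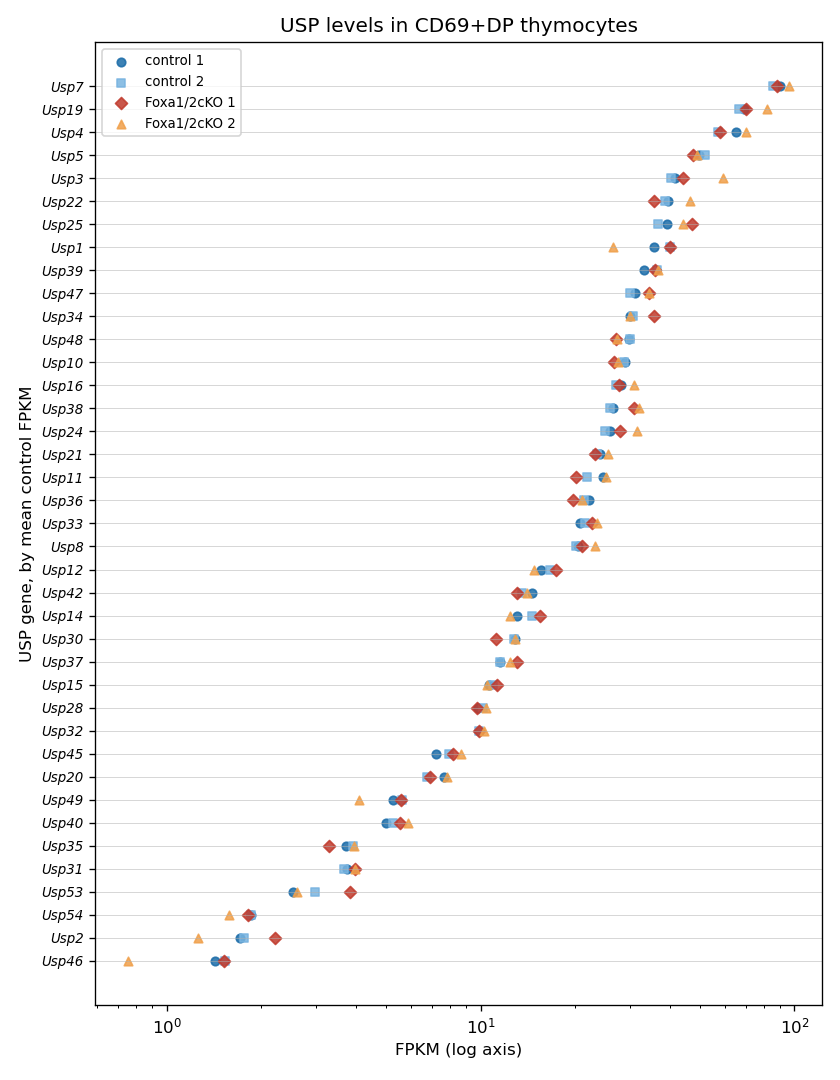
FPKM of the 39 tested USP genes (log axis) in each of the 4 samples, with a symbol per sample and the genes ordered by their mean in control. Levels run from about 1.48 FPKM (*Usp46*) to 87.8 FPKM (*Usp7*) in control, and the samples of most genes lie close together, with Foxa1/2cKO 2 apart for *Usp3*, *Usp1* and *Usp46*.

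Promoter sequence is shown for members that span this range, since the window before a start site was the feature in which expressed and silent USP genes could be set side by side. RefSeq windows of 300 bases (250 before the start and 50 after it, GRCm38.p6) were given for 36 of the 45 members, and *Usp1*, *Usp5*, *Usp14*, *Usp22*, *Usp33*, *Usp39*, *Usp42*, *Usp43* and *Usp53* had none. Capitals mark CG dinucleotides. *Usp7* (chr16:8738293-8738592, minus strand) had the highest level and 63 CG, the most of the members. *Usp25* (chr16:77013819-77014118, plus strand) differed between the groups with an unadjusted p under 0.05. *Usp13* (chr3:32817376-32817675, plus strand) and *Usp50* (chr2:126783411-126783710, minus strand) are members that were near or at 0 in every sample.
Usp7: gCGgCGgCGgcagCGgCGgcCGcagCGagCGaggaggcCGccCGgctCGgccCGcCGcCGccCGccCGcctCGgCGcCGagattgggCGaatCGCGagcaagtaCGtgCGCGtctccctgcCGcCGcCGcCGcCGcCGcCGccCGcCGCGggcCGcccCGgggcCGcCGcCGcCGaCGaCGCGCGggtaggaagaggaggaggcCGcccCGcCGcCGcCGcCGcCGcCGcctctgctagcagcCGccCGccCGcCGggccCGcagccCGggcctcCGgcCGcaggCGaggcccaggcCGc
Usp25: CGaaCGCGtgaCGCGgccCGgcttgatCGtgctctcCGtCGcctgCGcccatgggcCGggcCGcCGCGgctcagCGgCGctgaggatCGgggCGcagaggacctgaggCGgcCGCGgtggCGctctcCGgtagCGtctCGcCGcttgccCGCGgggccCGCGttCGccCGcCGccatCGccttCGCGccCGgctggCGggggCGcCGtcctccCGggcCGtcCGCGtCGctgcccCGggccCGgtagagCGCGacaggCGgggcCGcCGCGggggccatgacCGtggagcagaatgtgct
Usp13: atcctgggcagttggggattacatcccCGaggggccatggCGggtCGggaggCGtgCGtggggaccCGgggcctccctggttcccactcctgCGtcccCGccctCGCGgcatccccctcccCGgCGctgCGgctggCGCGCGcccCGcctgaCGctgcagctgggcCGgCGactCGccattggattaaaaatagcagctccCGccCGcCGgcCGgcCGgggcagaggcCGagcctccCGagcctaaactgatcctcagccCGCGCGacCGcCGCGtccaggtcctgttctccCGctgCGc
Usp50: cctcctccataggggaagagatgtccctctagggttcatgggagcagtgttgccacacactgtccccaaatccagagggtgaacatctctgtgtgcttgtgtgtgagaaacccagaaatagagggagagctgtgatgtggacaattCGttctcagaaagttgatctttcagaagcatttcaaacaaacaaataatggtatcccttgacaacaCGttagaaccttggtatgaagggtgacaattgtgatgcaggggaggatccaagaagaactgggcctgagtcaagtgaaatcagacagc

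The windows of the 31 tested members held a median of 31 CG, with a range of 5 to 63. Over all 32851 promoters in the table the median was 7 CG. At least 20 CG were found in 22 of the 31, against 26.5% of all promoters. The 31 had passed the FPKM filter, while the promoters in the table were not filtered by FPKM, so these sets are unlike. No share over the promoters of all genes tested was counted, and whether the contrast is particular to USP genes was not tested. Of the 5 members with a window that were not tested, *Usp50* held 2 CG, *Usp26* 5, *Usp51* 6, *Usp29* 17 and *Usp13* 36. *Usp13* was thus as rich in CG as expressed members, and *Usp19*, second in level, held 15. Across the 31 tested genes the Spearman rho between CG number and mean control FPKM was 0.262, as a description over genes that share their libraries.

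**Figure D2:**
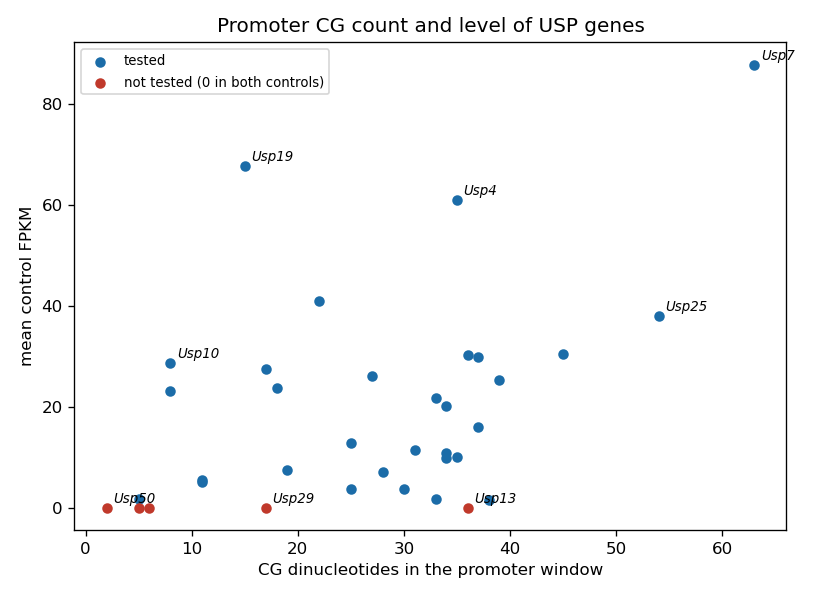
Number of CG dinucleotides in the promoter window against the mean control FPKM, for 31 tested USP genes and for 5 USP genes that were not tested. *Usp7* and *Usp25* have the most CG, at 63 and 54, while *Usp13* holds 36 at a level of 0 in both controls.

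Foxa proteins bind a forkhead motif, so the letters TGTTTAC and TGTTTGC were searched on both strands of the same windows. The motifs differ at 1 base and cannot lie on the same bases. A match was present in *Usp26* and *Usp37*, which are 2 of 36 members, against 8.48% of all promoters. The windows of *Usp25* and *Usp38* held none, which says only that these letters are not in this window.

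The comparison of Foxa1/2cKO with control asked whether USP transcripts differ at this stage without *Foxa1* and *Foxa2*. Differences were small. The log2 fold changes of the 39 genes, fitted with limma on log2(FPKM + 1), ran from -0.24 (*Usp46*) to 0.31 (*Usp3*), with a median of 0.03 against 0.01 over all genes tested. The median size of the change was 0.0856 in USP genes and 0.112 in all genes tested, and it was under 0.2 in 33 of the 39. No USP gene had an adjusted p under 0.05 by limma with Benjamini-Hochberg adjustment, where 0.00928% of all genes tested did, and the smallest adjusted p of the family was 0.863. At an unadjusted p under 0.05, limma gave 2 USP genes, *Usp38* (unadjusted p of 0.0302) and *Usp25* (0.0381), both higher in Foxa1/2cKO, where 4.55% of all genes tested passed. Limma-voom on reads recovered from the FPKM also gave 0 adjusted and 2 unadjusted calls, where 4.82% of all genes tested had an unadjusted p under 0.05. Upper-quartile scaling left *Usp38* alone (unadjusted limma p of 0.0567 for *Usp25*), where 4.93% of all genes tested passed. With the replicate number as a block neither passed (unadjusted limma p of 0.0943 for *Usp25* and 0.0987 for *Usp38*), where 3.51% of all genes tested did.

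In 13 of the 39 genes (33.3%) the Foxa1/2cKO samples were both above the controls, where 18.9% of all genes tested did. Both lay below both controls in 5 genes (12.8%), where 17.8% of all genes tested did. In the other 21 genes the groups overlapped, as they did in 6822 of the 10776 genes tested. The 13 higher genes differed by 0.02 to 0.31 on the log2 scale. After a correction for gene length the genes above numbered 10 and those below remained 5, with no share over all genes counted under that correction. The part of gene length in these counts was not tested. USP genes are long, with a median length of 4386 bases against 2751 over all genes tested, and fold change and length had a Spearman rho of 0.145 across all genes tested. The 95% interval of the log2 fold change lay within -0.58 to 0.58 in 33 of the 39 genes. On log2(FPKM + 1) this bound is close to 1.5-fold for high genes and a wider fold of FPKM for low genes. With 2 samples in each group, the smallest two-sided p of an exact permutation test is 0.333. Fewer transcribing cells and less RNA per cell cannot be told apart in bulk RNA.

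**Figure D3:**
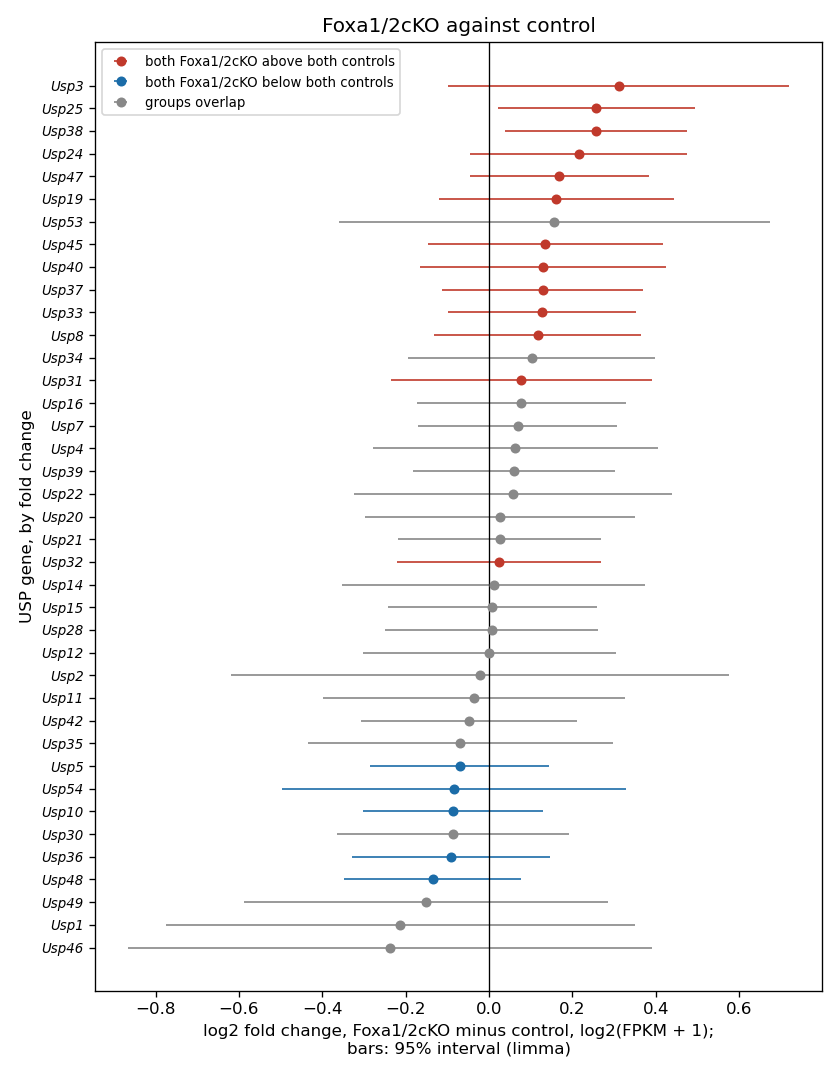
Log2 fold change (Foxa1/2cKO minus control, log2(FPKM + 1)) of the 39 tested USP genes with its 95% interval from limma, coloured by whether both Foxa1/2cKO samples lie above (13 genes), below (5 genes) or among the controls (21 genes). The intervals of *Usp25* and *Usp38* are the ones that do not cross 0.

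Among USPs that act in NF-kB, Wnt and innate signalling, 3 of 5 lay above the controls and none below, where 18.9% and 17.8% of all genes tested did, with a median log2 fold change of 0.10. *Usp25*, which deubiquitinates TRAF adaptors in cytokine signalling, measured 39.3 and 36.8 FPKM in controls and 47.2 and 44.2 FPKM in Foxa1/2cKO. Both Foxa1/2cKO samples were thus above both controls. The means, 38.1 ± 1.77 and 45.7 ± 2.15 FPKM (SD), differed by 20.1% and gave a log2 fold change of 0.26 (SE 0.09, 95% interval 0.02 to 0.49). The fold change was 0.30 without Foxa1/2cKO 2 and 0.21 without Foxa1/2cKO 1. *Usp38*, a deubiquitinase of innate immune kinase signalling, measured 26.4 and 25.9 FPKM in controls and 30.7 and 32.1 FPKM in Foxa1/2cKO. Here too the groups were apart, by more than the spread within either. Its log2 fold change was 0.26 (SE 0.08, 95% interval 0.04 to 0.48), and it was 0.23 without Foxa1/2cKO 2 and 0.29 without Foxa1/2cKO 1. Of the 50-base stretches of *Usp38*, 24.4% also occur in the annotated gene *Gm9725*, so its reads may be shared. *Usp31* was above the controls by 0.08 on the log2 scale at 3.67 to 3.98 FPKM. *Usp34*, which acts on axin in Wnt signalling, and *Usp35*, the paralogue of *Usp38*, overlapped between the groups. The *Usp35*/*Usp38* ratio of FPKM was 0.141 and 0.152 in controls and 0.107 and 0.123 in Foxa1/2cKO.

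USPs of endosomes, receptor traffic and membranes lay above the controls in 4 of 6 genes and below in none (18.9% and 17.8% of all genes tested), with a median log2 fold change of 0.07. *Usp19*, which has an isoform anchored in the endoplasmic reticulum membrane, measured 68.8 and 66.6 FPKM in controls and 70.2 and 82.0 FPKM in Foxa1/2cKO. The distance came mainly from Foxa1/2cKO 2, since the log2 fold change was 0.16 (SE 0.11) with all samples and 0.05 without it. *Usp8*, which removes ubiquitin from receptors at the endosome and is required for T-cell development, measured 20.4 and 20.2 FPKM in controls and 21.0 and 23.2 FPKM in Foxa1/2cKO. *Usp33*, which acts on receptors recycled to the membrane, measured 20.7 and 21.5 FPKM in controls and 22.7 and 23.5 FPKM in Foxa1/2cKO. Both were above the controls, by 0.12 and 0.13 on the log2 scale (SE 0.10 and 0.09), with 95% intervals that crossed 0. The log2 fold change of *Usp8* was 0.046 without Foxa1/2cKO 2 and 0.19 without Foxa1/2cKO 1. The *Usp33* reads may be shared, since 38.9% of its 50-base stretches occur in *Gm43857*. *Usp32* was above by only 0.02. *Usp20*, the paralogue of *Usp33*, and *Usp30*, which sits in the outer mitochondrial membrane, overlapped. *Usp20* ran at 0.303 to 0.370 of the *Usp33* level.

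In the group linked to p53, Mdm2, Myc and the DNA damage response, 4 of 12 tested genes lay above the controls and 3 below (18.9% and 17.8% of all genes tested), and the median log2 fold change was -0.01. *Usp7*, which deubiquitinates Mdm2 and p53, measured 90.1 and 85.4 FPKM in controls and 88.3 and 96.0 FPKM in Foxa1/2cKO, and the groups overlapped. Its close relative *Usp47*, which acts on DNA polymerase beta, measured 31.1 and 29.9 FPKM in controls and 34.4 and 34.4 FPKM in Foxa1/2cKO. That difference, a log2 fold change of 0.17 (SE 0.08, 95% interval -0.05 to 0.38), was 0.17 without either Foxa1/2cKO sample. *Usp7* exceeded *Usp47* by 2.85-fold to 2.90-fold in controls and by 2.56-fold to 2.79-fold in Foxa1/2cKO.

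*Usp24*, which acts on DNA damage proteins, measured 25.9 and 24.9 FPKM in controls and 27.9 and 31.4 FPKM in Foxa1/2cKO. The groups were apart, and a log2 fold change of 0.22 (SE 0.10, 95% interval -0.04 to 0.48) with all samples became 0.13 without Foxa1/2cKO 2 and 0.15 after correction for gene length, at a gene length of 10601 bases. *Usp37*, which stabilises cyclin A, measured 11.53 FPKM in either control and 13.04 and 12.36 FPKM in Foxa1/2cKO. *Usp45*, which acts on the repair nuclease subunit Ercc1, measured 7.22 and 7.93 FPKM in controls and 8.14 and 8.69 FPKM in Foxa1/2cKO. Both were above the controls by less than 0.2 on the log2 scale (0.13 and 0.14, SE 0.09 and 0.11).

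*Usp48* had the smallest p of the lower genes. It is a nuclear enzyme that acts on RelA, a subunit of NF-kB, and on histone H2A, and it measured 29.69 and 29.96 FPKM in controls and 27.00 and 27.12 FPKM in Foxa1/2cKO. The samples within each group were nearly equal, and the log2 fold change was -0.14 (SE 0.08, 95% interval -0.35 to 0.08), or -0.14 to -0.13 when any sample was left out. *Usp10*, which deubiquitinates p53 and binds G3bp1, and *Usp36*, a nucleolar enzyme, were also below the controls, each by a log2 fold change of -0.09. *Usp2*, *Usp11*, *Usp28* and *Usp42* overlapped. *Usp28*, the paralogue of *Usp25*, had a log2 fold change of 0.01, and the *Usp25*/*Usp28* ratio of FPKM was 3.99 and 3.62 in controls and 4.85 and 4.25 in Foxa1/2cKO. *Usp36* exceeded its paralogue *Usp42* by 1.502-fold to 1.579-fold in all samples.

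Of the enzymes that deubiquitinate histones H2A and H2B, 1 of 5 tested genes lay above the controls and none below (18.9% and 17.8% of all genes tested). That gene was *Usp3*, which acts on H2A and H2AX, and it had the largest log2 fold change of the family. It measured 41.5 and 40.6 FPKM in controls and 44.2 and 59.1 FPKM in Foxa1/2cKO. Foxa1/2cKO 1 was close to the controls and Foxa1/2cKO 2 was far above them. The log2 fold change of 0.31 (SE 0.16, 95% interval -0.10 to 0.72) was 0.11 without Foxa1/2cKO 2 and 0.52 without Foxa1/2cKO 1. *Usp22*, the H2B deubiquitinase of the SAGA complex, *Usp16* and *Usp21*, which act on H2A, and *Usp49* overlapped between the groups. Reads of *Usp49* may be shared, with 52.3% of its 50-base stretches also in *Gm20517*. The SAGA partners *Atxn7l3*, *Eny2* and *Atxn7* overlapped as well, with log2 fold changes between -0.07 and 0.06. *Usp51* was listed at 0.

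The USPs that depend on the WD-repeat protein Wdr48 overlapped between the groups in 3 of 3 genes, as did 6822 of the 10776 genes tested. *Usp1*, which removes ubiquitin from Fancd2 and PCNA, measured 35.8 and 40.1 FPKM in controls and 40.1 and 26.4 FPKM in Foxa1/2cKO. *Usp12* measured 15.5 and 16.7 FPKM in controls and 17.4 and 14.8 FPKM in Foxa1/2cKO. *Usp46*, its paralogue, measured 1.43 and 1.53 FPKM in controls and 1.52 and 0.755 FPKM in Foxa1/2cKO. In all 3 genes Foxa1/2cKO 2 was the lowest sample and Foxa1/2cKO 1 lay within or above the controls. The log2 fold changes of *Usp1* and *Usp46*, -0.21 and -0.24, became 0.08 and 0.02 without Foxa1/2cKO 2. For *Usp46*, which is low, the value also depended on the scale, at -0.42 with a pseudocount of 0.1 and -0.46 by limma-voom on recovered reads. *Usp12* had a log2 fold change of 0.00 (SE 0.12). *Usp46* rested on 69 and 67 reads in controls and on 53 and 27 reads in Foxa1/2cKO, which sets the *Usp12*/*Usp46* ratio of 10.9 in either control beside 11.5 and 19.7 in Foxa1/2cKO. Of the 50-base stretches of *Usp1*, 22.8% also occur in *Gm5841*, and *Usp46* overlaps the antisense genes *Usp46os1* and *Usp46os2*, whose reads cannot be told from its own because the strand setting of the counting is not given. *Wdr48* itself stood at 29.7 and 29.2 FPKM in controls and 29.1 and 35.01 FPKM in Foxa1/2cKO, and was thus not lower in Foxa1/2cKO 2.

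The 3 USPs tied to the spliceosome overlapped between the groups, as did 6822 of the 10776 genes tested. *Usp4*, which the U4/U6 recycling factor Sart3 directs to Prp3, measured 64.9 and 57.2 FPKM in controls and 58.0 and 69.9 FPKM in Foxa1/2cKO. *Usp15*, its paralogue and a further partner of Sart3, measured 10.7 and 10.9 FPKM in controls and 11.2 and 10.5 FPKM in Foxa1/2cKO. *Usp39*, a member without protease activity that is needed to assemble the tri-snRNP, measured 33.1 and 36.6 FPKM in controls and 35.9 and 36.7 FPKM in Foxa1/2cKO. Their log2 fold changes were 0.06, 0.01 and 0.06, with 95% intervals of -0.28 to 0.40, -0.24 to 0.26 and -0.18 to 0.30. These intervals leave out a change of 1.5-fold in each gene. *Sart3* stood at 35.3 and 37.3 FPKM in controls and at 36.5 and 35.4 FPKM in Foxa1/2cKO. The *Usp4*/*Usp15* ratio ran from 5.16 to 6.65 and *Usp4*/*Usp11* from 2.61 to 2.87, without separation of the groups in the former and with 2.65 and 2.61 in controls against 2.87 and 2.78 in Foxa1/2cKO in the latter.

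For chain recycling, *Usp5*, which takes apart free ubiquitin chains, measured 49.6 and 51.7 FPKM in controls and 47.5 and 48.8 FPKM in Foxa1/2cKO. Both Foxa1/2cKO samples were below both controls, by a log2 fold change of -0.07 (SE 0.08). *Usp14*, which is bound to the proteasome, overlapped at 12.4 to 15.5 FPKM, and shares 45.3% of its 50-base stretches with *Thoc1*. *Usp13*, the paralogue of *Usp5*, had 1 read, in Foxa1/2cKO 1, or 0.0198 FPKM, and 0 reads in the other samples. Over all samples, with Foxa1/2cKO 1 included, 3 reads amount to between 0.0428 and 0.0593 FPKM. That number of reads is the limit that a count of 0 allows (counting error only). *Usp5* was thus the one of this pair that could be measured at this depth.

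In the group that is little characterised or restricted to other tissues, *Usp40* measured 4.99 and 5.27 FPKM in controls and 5.52 and 5.88 FPKM in Foxa1/2cKO, above the controls by a log2 fold change of 0.13 (SE 0.11). *Usp54* was below them by -0.08 on the log2 scale and *Usp53* overlapped. *Usp43* and *Usp50*, with *Usp26* and *Usp29* of the DNA damage group and *Usp51* of the histone group, were listed at 0 in all samples. A count of 0 allows up to 0.0266 to 0.0369 FPKM for *Usp29*, the longest of these, and up to 0.147 to 0.204 FPKM for *Usp50*, the shortest.

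How far the values rested on Foxa1/2cKO 2 differed between the members. This sample departed from the mean of the other 3 by more than 0.25 on the log2 scale in 8 of the 39 genes, 4 upwards (*Usp3*, *Usp22*, *Usp19* and *Usp24*) and 4 downwards (*Usp1*, *Usp46*, *Usp2* and *Usp49*), where 35.5% of all genes tested departed as far. Without it, 30 of 39 genes kept the sign of their log2 fold change and 4 had an unadjusted p under 0.05 by limma, where 17.5% of all genes tested did. Without Foxa1/2cKO 1, 6 USP genes had an adjusted p under 0.05 (*Usp3*, *Usp19*, *Usp22*, *Usp24* and *Usp38* higher, *Usp1* lower), where 23.7% of all genes tested did. That comparison sets a lone sample against the controls and assumes that it varies as they do.

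**Figure D4:**
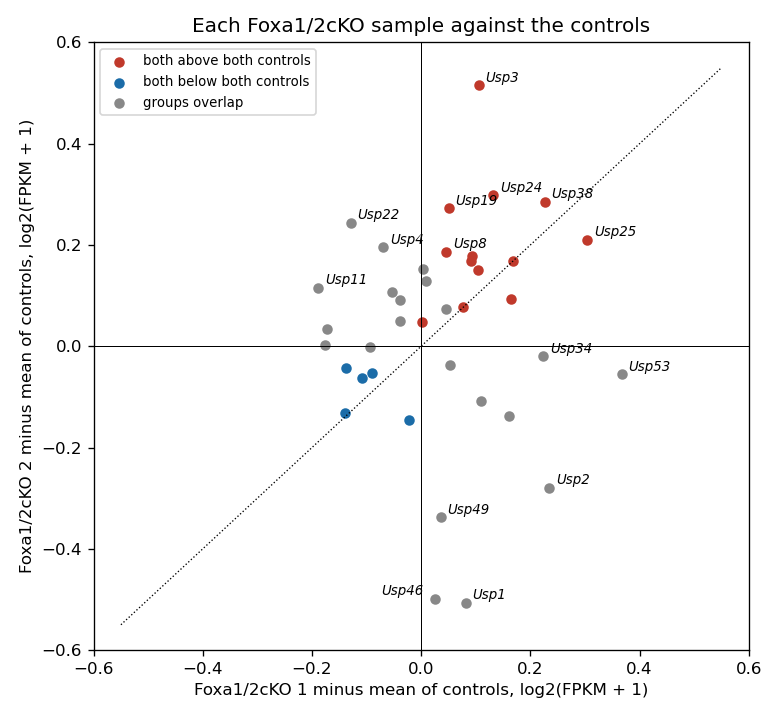
Log2 difference of Foxa1/2cKO 1 (horizontal) and of Foxa1/2cKO 2 (vertical) from the mean of the same 2 controls, in log2(FPKM + 1), for the 39 tested USP genes. *Usp25* (0.30 and 0.21) and *Usp38* (0.23 and 0.29) lie near the dotted line of equal values, while *Usp3* (0.11 and 0.52) and *Usp1* (0.08 and -0.51) differ between the samples.

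USP-fold genes with other names and genes of other deubiquitinase families were set beside the USPs from the same fit. These lists go by family, and not every gene in them encodes an active deubiquitinase. Of 4 tested USP-fold genes, *Usp9x*, which acts on Mcl1 and in TCR signalling, had an unadjusted limma p of 0.0381 and an adjusted p of 0.863. It measured 15.3 and 14.8 FPKM in controls and 19.6 and 17.6 FPKM in Foxa1/2cKO, which separated the groups by a log2 fold change of 0.28 (SE 0.10). *Cyld* and *Uspl1* also lay above the controls, by log2 fold changes of 0.08 and 0.14 (SE 0.09 and 0.10) with 95% intervals that crossed 0, and *Pan2* overlapped. Of all genes tested, 18.9% lay above the controls. *Usp27x* was below 1 FPKM in every sample. Of 34 tested genes in the UCH, OTU, Josephin, JAMM and MINDY or ZUP1 families, 11 lay above the controls (32.4%) and 4 below (11.8%), where 18.9% and 17.8% of all genes tested did and 33.3% and 12.8% of the USPs, with a median log2 fold change of 0.04. None had an adjusted p under 0.05 by limma, and *Josd2* alone had an unadjusted p under 0.05.

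**Figure D5:**
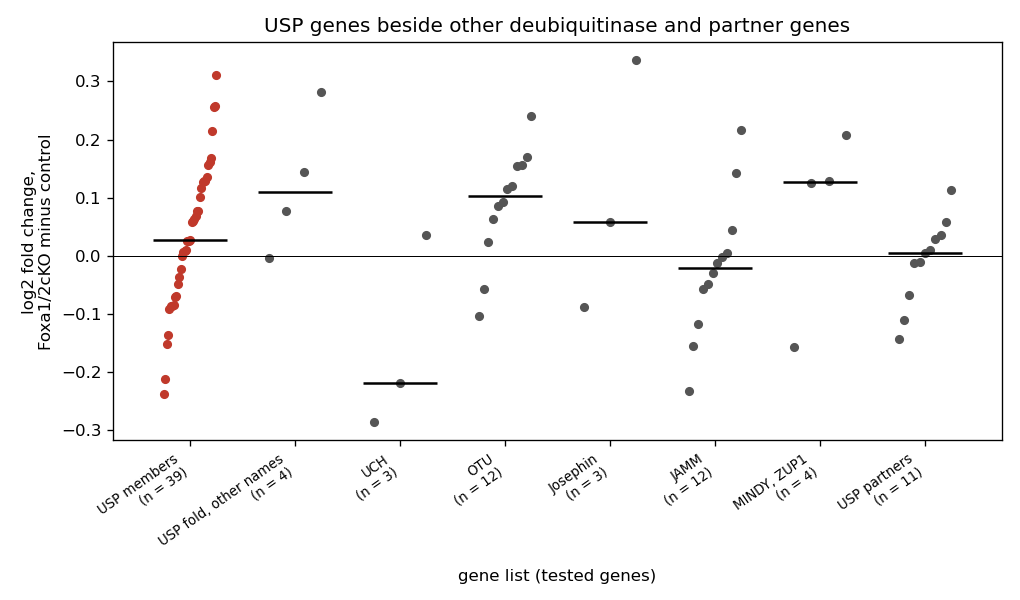
Log2 fold change (Foxa1/2cKO minus control, log2(FPKM + 1)) of the 39 tested USP genes and of the tested genes in 7 other lists, with a point per gene and a bar at the median. The USP median is 0.03, and the 39 genes run from -0.24 to 0.31.

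The 11 tested USP partners include *Gmps* of *Usp7*, *G3bp1* of *Usp10* and *Stam* and *Stam2* of *Usp8*. They overlapped between the groups in 11 of 11 genes, where 6822 of the 10776 genes tested did.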

How the data were processed

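CD69+DP thymocyte RNA was sequenced in 2 control and 2 Foxa1/2cKO samples. Per the methods, alignment was to mm10 on BaseSpace with RefSeq annotation, and HTSeq (union mode) counted the reads. The submitters' processing notes also list TopHat and Picard. Each deposited value is an FPKM of a gene in a sample, and the step that made them is not given in the sources used here, nor is the strand setting of the gene counting. Per sample, reads were divided by 14968316 (control 1), 13576813 (control 2), 10796528 (Foxa1/2cKO 1) and 11093927 (Foxa1/2cKO 2), found from the steps between values. These divisors are not plain read totals, since that of Foxa1/2cKO 2 was smaller than its 11261898 reads on listed genes. Whole reads, within a tolerance of 0.02 bases in gene length, were recovered for 100% of 16069 genes above 0, up to a common divisor per gene. No column of another sample was present.

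Foxa1/2cKO was compared with control by limma 3.58.1 in R 4.3.3 (trend, 2 residual and 2.69 prior degrees of freedom) on log2(FPKM + 1), which understates the change of low genes, with Benjamini-Hochberg adjustment over 10776 genes at 0.05. The fit was tested on simulated data with the spread between the controls alone and with changes larger than that of any USP gene. That test therefore does not cover changes of the size seen here. Figures used Python 3.11.15 and matplotlib 3.10.9. Transcript positions and shared 50-base stretches came from an annotation of GRCm38, and promoters from RefSeq. Members and lists were chosen with earlier results of these data known. Values per sample are given for the 12 members with the smallest p, the 5 with the highest control level, those above 0 that were not tested, and the spliceosome and Wdr48 groups. *Wdr48*, *Sart3* and the other listed partners and members beyond this rule were named as partners, list members or after their values were seen. Alternatives were a pseudocount of 0.1, no filter, FPKM of at least 1 in all 4 samples, scaling to the upper quartile, the replicate number as a block, removal of a loess trend on gene length with and without that block, limma-voom on recovered reads, and leaving out each sample. Samples are labelled as replicates sorted from different mice. Exon usage was not analysed here. The result of 1 further gene list is not reported here.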

Additional observations from a re-analysis of the deposited data

How the results depend on the processing

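The number of USP genes with an adjusted p under 0.05 stayed at 0 under every alternative that kept all 4 samples, and was 0 to 6 when a sample was left out. The number with an unadjusted p under 0.05 was 2, and it was 1 under upper-quartile scaling, 0 with the replicate block, 0 with the replicate block and gene length correction, and 0 to 10 when a sample was left out, with 10 without Foxa1/2cKO 1, where 39.2% of all genes tested passed, and 4 without Foxa1/2cKO 2, where 17.5% did. With all samples kept, the share of all genes tested that passed was 4.55% in the main fit and 4.93% under upper-quartile scaling. It was 3.51% with the replicate block, with or without gene length correction. Same-numbered samples did not deviate together (correlation -0.0587), so the block pairs samples by a number alone. The genes above the controls numbered 13 and those below numbered 5. Under upper-quartile scaling they numbered 12 and 6, and with gene length correction 10 and 5. No share over all genes tested was counted under either setting, so these counts do not show whether the USP shares differ from it there. When a sample was left out, 15 to 23 genes lay above and 7 to 13 below. Without Foxa1/2cKO 2 there were 20 above and 12 below. With 1 sample left in a group, overlap is less likely by design. No share over all genes tested was counted there, so these larger counts do not show a larger USP difference. Of 239 log2 fold changes of 20 named members under 12 settings, 221 kept their direction and call, 5 gained an adjusted p under 0.05, all when Foxa1/2cKO 1 was left out (*Usp38*, *Usp24*, *Usp3*, *Usp19* and *Usp1*), and 13 changed sign. *Usp15* was -0.010 under upper-quartile scaling, -0.062 with gene length correction, -0.062 with the replicate block and gene length correction, and -0.037 to 0.053 when a sample was left out. *Usp12* was -0.019 under upper-quartile scaling and -0.11 to 0.11 when a sample was left out. With a sample left out, *Usp39* ran from -0.011 to 0.13, *Usp4* from -0.069 to 0.20, *Usp1* from -0.51 to 0.081 and *Usp46* from -0.50 to 0.025. *Usp46* was also -0.42 with a pseudocount of 0.1 and -0.46 by limma-voom. Over the alternatives, the limma p of *Usp25* was 0.00506 to 0.310 and that of *Usp38* 0.00516 to 0.246, and their log2 fold changes stayed at 0.21 to 0.30 and 0.23 to 0.29. Depth limits the lowest tested members, which had down to 27 reads in a sample. The cause of these changes was not tested.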
